A study of Mus musculus with 6 samples.

Results

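Splicing factor genes were followed through 3 stages of Eμ-Myc B-cell disease in RNA-seq of mouse bone marrow B cells. The set held the 74 protein-coding genes whose symbols begin with Srsf, Hnrnp, Snrp, Sf3a, Sf3b, Prpf or Lsm, each followed by the number or letter of the member, among 37991 annotated genes with a row in the count tables. They fall into 12 Snrp, 12 Lsm, 8 Sf3, 13 Prpf, 11 Srsf and 18 Hnrnp genes. The rule used symbols only and no measured value, though it was chosen with earlier results of these data known. Of these, 72 passed the filter on low counts and were tested. The 2 that did not were Snrpn, which encodes a tissue-restricted Sm protein, with at most 0.0849 CPM (counts per 1000000 counts, on library sizes scaled by the trimmed mean of M values, TMM), and the SR gene Srsf12, with at most 0.227 CPM.

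The spliceosome removes introns from pre-mRNA and is built from small nuclear ribonucleoproteins (snRNPs), each an snRNA wrapped in proteins. A ring of Sm proteins sits on the U1, U2, U4 and U5 snRNAs, and a related ring of Lsm proteins sits on U6. The SF3 proteins belong to the U2 snRNP and Prpf proteins to several snRNPs and to the catalytic core, while SR proteins (Srsf genes) and hnRNPs bind the pre-mRNA itself and influence which exons are joined. MYC is a transcription factor whose targets are known to include genes of snRNP assembly and splicing.

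The study compared B220high IgM low IgD low pro-B and pre-B cells, sorted by flow cytometry from bone marrow, of wild-type C57BL/6 mice aged 4 to 6 weeks, of premalignant Eμ-Myc mice of the same age, and transformed pre-B cells of Eμ-Myc mice aged 10 to 20 weeks with malignant disease. Eμ-Myc mice are heterozygous for a Myc transgene driven by the immunoglobulin heavy chain enhancer, which is active in the B lineage. The engineered change is thus the added transgene, and not a change of the Myc gene at its own locus. Each stage had 2 biological replicates, so there were 6 libraries, and the wild-type mice were littermates of the premalignant ones. By the paper's methods, wild-type and premalignant cells came from female mice, and malignant cells from mice of both sexes. Malignant cells were sorted by another gate, as B220-positive, IgM-negative and IgD-negative. Age, sort gate and disease stage cannot be told apart in the malignant group.

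Libraries held between 30031100 and 53453055 counts on genes, with replicate 1 deeper than replicate 2 in each stage. Detection was set at 3 counts, which is 0.0526 to 0.108 CPM, far below the level of any tested member. Myc, the check of the labels, was at 33.8 and 41.4 CPM in wild-type cells, 1164 and 1155 CPM in premalignant cells, and 1732 and 1578 CPM in malignant cells. The 7 pre-B markers summed to 5604 and 6489 CPM in wild-type, 2856 and 2847 CPM in premalignant and 2477 and 2345 CPM in malignant libraries. Among them the B-cell receptor gene Cd79a was at 1103 and 1480, 802 and 867, and 732 and 834 CPM in the 3 stages. The surrogate light chain gene Igll1, which defines pro-B and large pre-B cells, was at 197 and 195 CPM in wild-type, 18.8 and 9.58 CPM in premalignant and 0.167 and 7.56 CPM in malignant libraries. The 6 markers of neutrophils and monocytes summed to 771 and 1695 CPM in wild-type, 231 and 247 CPM in premalignant and 55.0 and 111 CPM in malignant libraries, and the 5 erythroid markers to 292 and 1079, 59.6 and 138, and 51.9 and 57.7 CPM, all of these genes being detected in every library. The markers of T and NK cells (5 genes), plasma cells (3 genes) and megakaryocytes (3 genes) summed to at most 79.4, 82.9 and 4.22 CPM, with Cd3e listed at 0 in premalignant replicate 2 and Pf4 at 0 in both malignant libraries. All of these sums were highest in a wild-type library, and their part in the results below was not tested. In such bulk samples fewer cells of a type and less RNA per cell cannot be told apart.

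Splicing factor transcripts took a larger share of all counts in Eμ-Myc cells of both stages. The 74 genes together held 2.13 and 1.90% of counts in wild-type replicates 1 and 2, 2.72 and 2.70% in premalignant libraries, and 2.40 and 2.43% in malignant libraries. In premalignant vs. wild type, 47 of 72 members (65.3%) were called higher and 0 lower by the quasi-likelihood test of edgeR, p-values being adjusted after Benjamini and Hochberg over all 16683 genes tested. A call needed an FDR not above 0.1 and a log2 fold change of 0.5 or more in size. Over all genes tested, 19% were called higher and 20.3% lower in that comparison. The unadjusted p was under 0.05 for 53 members with a higher and 0 with a lower level, and DESeq2 called 51 higher and 0 lower. In malignant vs. wild type, 43 members (59.7%) were called higher and 1 lower, where 24.9% of all genes were called higher and 24.3% lower. The median log2 fold change of the 72 members was 0.73 in premalignant and 0.67 in malignant vs. wild type, whereas the medians over all genes tested were -0.08 and -0.02. Both comparisons use the same 2 wild-type libraries. With library totals in place of TMM scaling, the calls in malignant vs. wild type were 27 higher and 5 lower. Of all 16683 genes, 2957 were then called higher and 5367 lower. The median over all genes moved to -0.31, so the size of these changes is relative to the scaling. Against wild type, the medians of the 6 gene families and of the Sm and Lsm rings kept their sign under each scaling tried. In malignant vs. premalignant cells the small medians of the Sf3 genes and the Lsm ring, 0.07 and 0.04, turned to -0.02 and -0.05 with library totals, and upper-quartile scaling also made them negative.

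Few of these genes passed the test between malignant and premalignant cells. Of the 72 members, 0 were called higher and 1 lower in malignant vs. premalignant cells, compared with 3.73% and 2.45% of all genes tested, and the median log2 difference was -0.07. At an unadjusted p under 0.05 there were 0 higher and 4 lower by edgeR, and DESeq2 called 0 higher and 2 lower. The only call was Lsm14b (chr2:179759692-179770170, NCBIM37), which encodes a protein of cytoplasmic mRNP granules and not a spliceosome subunit. Lsm14b was at 48.8 and 43.9 CPM in wild-type, 60.8 and 52.7 CPM in premalignant and 33.5 and 34.4 CPM in malignant libraries. Both malignant values thus lay below the other 4, and the change vs. premalignant cells was -0.74 ± 0.15 (log2, SE; adjusted p = 0.0651). This call was not made when either wild-type or either premalignant library was left out. Those fits called far fewer genes of any kind, or none, in this comparison, so they cannot test the call on Lsm14b.

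The share of members called differed between the groups. The 7 Sm ring genes and the 4 U1 and U2 protein genes were called higher in both comparisons without exception. The shares were lower in the other groups. In premalignant vs. wild type 8 of 12 Lsm, 7 of 8 Sf3, 6 of 13 Prpf, 4 of 10 Srsf and 11 of 18 Hnrnp genes were called higher, and in malignant vs. wild type 7, 6, 5, 5 and 9. Whether the groups differ from each other was not tested. Median log2 fold changes in premalignant vs. wild type were 1.22 for the Sm ring, 0.98 for the U1 and U2 proteins, 0.93 for Lsm, 0.95 for Sf3, 0.50 for Prpf, 0.58 for Srsf and 0.62 for Hnrnp genes. In malignant vs. wild type they were 1.49, 0.92, 0.92, 0.96, 0.38, 0.62 and 0.49 in the same order.

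**Figure D1:**
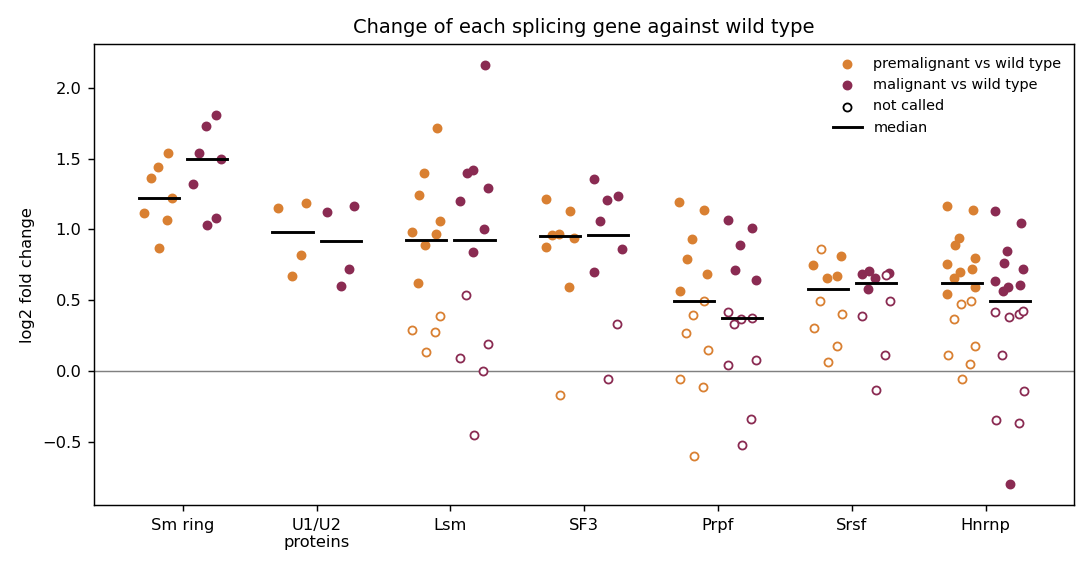
Log2 fold change (vertical axis) of each tested member in premalignant and malignant vs. wild type, by group; filled points were called, open points were not, and bars are medians. All 7 Sm ring genes and all 4 U1 and U2 protein genes were called and lie above 0.5, while the lowest points of the Prpf and Hnrnp groups lie below 0.

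Against wild type the Sm ring had the largest median change of the groups, and all 7 of its genes were called higher in both comparisons. The ring is assembled on the snRNA from SmB, SmD1, SmD2, SmD3, SmE, SmF and SmG, encoded by Snrpb, Snrpd1, Snrpd2, Snrpd3, Snrpe, Snrpf and Snrpg. Their summed level was 666 and 545 CPM in wild-type, 1368 and 1412 CPM in premalignant, and 1477 and 1634 CPM in malignant libraries. The promoters of 3 of these genes are printed here, Snrpd3 and Snrpg as ring genes with large changes and Snrpe as the ring gene with the smallest. Promoters of Snrpa, Hnrnpd and Hnrnpf follow, which hold the E-box letters CACGTG bound by MYC and MAX. They were picked from the members with these letters, and all were called higher in both comparisons. Each runs 5′ to 3′ from 250 bases before to 50 bases after a RefSeq transcript start (table on GRCm38.p6), was found once by exact match in NCBIM37, and has CACGTG and the CCAAT letters (CCAAT or ATTGG) in capitals.

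Snrpd3, chr10:74980537-74980836, plus strand: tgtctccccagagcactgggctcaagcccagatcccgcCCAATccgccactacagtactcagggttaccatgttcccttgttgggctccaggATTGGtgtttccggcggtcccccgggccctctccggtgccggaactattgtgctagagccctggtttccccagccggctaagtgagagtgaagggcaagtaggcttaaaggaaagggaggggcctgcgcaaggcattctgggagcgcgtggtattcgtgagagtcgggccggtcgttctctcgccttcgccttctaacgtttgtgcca
Snrpg, chr6:86321284-86321583, plus strand: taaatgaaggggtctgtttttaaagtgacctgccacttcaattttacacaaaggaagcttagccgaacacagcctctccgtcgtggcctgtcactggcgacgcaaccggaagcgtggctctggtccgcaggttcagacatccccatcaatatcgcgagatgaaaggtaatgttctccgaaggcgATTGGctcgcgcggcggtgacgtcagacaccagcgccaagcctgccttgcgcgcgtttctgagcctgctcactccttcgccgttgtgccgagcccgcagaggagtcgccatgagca
Snrpe, chr1:135506808-135507107, minus strand: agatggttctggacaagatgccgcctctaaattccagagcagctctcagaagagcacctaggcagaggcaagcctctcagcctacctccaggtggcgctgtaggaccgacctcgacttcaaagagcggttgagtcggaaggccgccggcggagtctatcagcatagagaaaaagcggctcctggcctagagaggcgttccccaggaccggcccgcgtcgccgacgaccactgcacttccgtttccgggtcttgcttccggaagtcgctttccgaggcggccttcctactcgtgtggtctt
Snrpa, downstream start, chr7:27980730-27981029, minus strand: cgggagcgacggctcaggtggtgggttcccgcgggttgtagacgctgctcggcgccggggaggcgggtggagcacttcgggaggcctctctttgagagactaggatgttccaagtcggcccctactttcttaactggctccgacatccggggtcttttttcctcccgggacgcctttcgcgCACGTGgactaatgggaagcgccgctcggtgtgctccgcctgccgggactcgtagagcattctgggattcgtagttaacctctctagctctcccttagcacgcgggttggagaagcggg
Snrpa, upstream start, chr7:27981241-27981540, minus strand: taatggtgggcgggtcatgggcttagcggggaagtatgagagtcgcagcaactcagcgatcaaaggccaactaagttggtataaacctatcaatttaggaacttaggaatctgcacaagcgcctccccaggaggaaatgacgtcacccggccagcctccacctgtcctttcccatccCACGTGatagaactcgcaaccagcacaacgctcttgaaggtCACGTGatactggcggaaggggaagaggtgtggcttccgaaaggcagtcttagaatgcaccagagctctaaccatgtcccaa
Hnrnpd, chr5:100407908-100408207, minus strand: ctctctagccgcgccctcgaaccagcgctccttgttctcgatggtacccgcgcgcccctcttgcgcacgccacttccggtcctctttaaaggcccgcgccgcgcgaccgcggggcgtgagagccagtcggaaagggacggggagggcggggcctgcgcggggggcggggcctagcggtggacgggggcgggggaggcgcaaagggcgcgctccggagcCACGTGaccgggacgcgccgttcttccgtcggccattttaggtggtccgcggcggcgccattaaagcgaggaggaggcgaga
Hnrnpf, chr6:117857572-117857871, plus strand: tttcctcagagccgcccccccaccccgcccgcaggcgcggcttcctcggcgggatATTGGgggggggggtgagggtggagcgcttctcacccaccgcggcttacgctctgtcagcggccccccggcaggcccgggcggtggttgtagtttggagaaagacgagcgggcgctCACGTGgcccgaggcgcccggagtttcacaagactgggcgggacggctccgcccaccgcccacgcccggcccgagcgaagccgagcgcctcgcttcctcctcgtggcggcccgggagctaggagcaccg

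Of each window, 50 to 70 bases are annotated as exon in GENCODE. Of the 72 tested members, 62 had a RefSeq promoter, with 81 promoters in all. CACGTG, which reads the same on both strands, was present in 11 of the 81 promoters (13.6%), compared with 7.15% of all 32851 promoters and 9.68% of the 12794 promoters of genes tested. Counted by gene, it was present in 9 of 62 members, 2187 of all 27025 genes with a promoter and 1152 of 10066 such genes tested. These 11 promoters belonged to 9 genes, which were Snrpa, Prpf3, Prpf39, Prpf40b, Hnrnpa3, Hnrnpd, Hnrnpf, Hnrnph2 and Hnrnpm. Among them, Prpf39, Prpf40b and Hnrnph2 were called in neither comparison with wild type. Of the 5 Sm ring genes with a promoter in the table, 0 held CACGTG in this window, and 3 held CCAAT on either strand. CCAAT was present in 49.4% of the members' promoters, 37.4% of all promoters and 38.0% of those of genes tested. CACGTG was found in 8 of 51 promoters of members called higher in premalignant cells and in 3 of 30 promoters of members not called. Counted by gene, it was found in 6 of 41 members called higher and in 3 of 21 not called, which are nearly equal shares. The promoter counts include all windows of Snrpa and of Prpf3, and the Prpf3 windows share the same CACGTG site. A match of letters is no evidence of binding, and the windows leave out anything outside these 300 bases.

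Snrpd3 (chr10:74980787-74998185), encoding SmD3, had the highest level per length of the Snrp genes. It was at 71.7 and 60.8 CPM in wild-type, 188 and 197 CPM in premalignant and 192 and 271 CPM in malignant libraries. All 4 Eμ-Myc libraries were above both wild-type libraries, and the malignant replicates differed from each other more than the premalignant ones. Its log2 fold change was 1.54 ± 0.20 in premalignant (adjusted p = 0.00431) and 1.80 ± 0.20 in malignant vs. wild type (adjusted p = 0.00151). Per length it was at 119 and 101 RPKM (CPM per kilobase of exon) in wild-type and at 317 and 449 RPKM in malignant cells.

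Snrpd1, encoding SmD1, was at 68.4 and 46.7 CPM in wild-type, 154 and 158 CPM in premalignant and 150 and 231 CPM in malignant libraries. It rose by 1.44 ± 0.27 in premalignant (adjusted p = 0.0116) and by 1.73 ± 0.27 in malignant vs. wild type (log2, adjusted p = 0.00419). The libraries of a stage stood further apart for Snrpd1 than for most members, by -0.55 between wild-type replicates 2 and 1 and by 0.62 between the malignant ones (log2). Snrpg, encoding SmG, was at 88.5 and 75.9, 204 and 219, and 210 and 254 CPM in the 3 stages, and its log2 fold changes were 1.36 ± 0.16 and 1.49 ± 0.16 (adjusted p = 0.0033 and 0.00134). Snrpd2 and Snrpb, encoding SmD2 and SmB, rose by 1.22 ± 0.18 and 1.07 ± 0.15 in premalignant cells and by 1.32 ± 0.18 and 1.08 ± 0.15 in malignant cells (log2). Snrpe, encoding SmE, was the least certain of the 7, at 105 and 81.7 CPM in wild-type, 165 and 176 CPM in premalignant and 238 and 143 CPM in malignant libraries. Its 2 malignant libraries lay on either side of the premalignant ones, and the log2 fold changes were 0.87 ± 0.26 (adjusted p = 0.0486) and 1.03 ± 0.26 (adjusted p = 0.0217).

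Snrpf, encoding SmF, was at 51.2 and 44.7 CPM in wild-type, 99.8 and 108 CPM in premalignant and 118 and 161 CPM in malignant libraries, a log2 fold change of 1.12 ± 0.19 and 1.54 ± 0.19. Of its exon bases, 85.4% overlap exons of Ccdc38 or 4933408J17Rik in the annotation, so its counts depend on how overlapping genes were counted. Per length, the 7 ring genes lay within 1.97-fold of each other in wild-type cells, from 55.7 RPKM for Snrpf to 110 RPKM for Snrpd3, and within 2.64-fold in premalignant and 2.76-fold in malignant cells. Across all 72 members the highest mean RPKM in wild-type cells was 239-fold the lowest.

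The U1 and U2 proteins among the Snrp genes had a lower median change than the Sm ring. Snrpa, a protein of the U1 snRNP, was at 79.9 and 75.0 CPM in wild-type, 169 and 174 CPM in premalignant and 185 and 163 CPM in malignant libraries, a log2 fold change of 1.15 ± 0.13 and 1.17 ± 0.13 (adjusted p = 0.00314 and 0.00155). Snrpa1, of the U2 snRNP, was at 56.0 and 52.6, 125 and 121, and 118 and 118 CPM, and its change was 1.18 ± 0.12 and 1.12 ± 0.12 (log2). Snrpc, of the U1 snRNP, and Snrpb2, of the U2 snRNP, rose by 0.82 ± 0.14 and 0.67 ± 0.20 in premalignant cells and by 0.72 ± 0.14 and 0.60 ± 0.20 in malignant cells, so that Snrpb2, with an adjusted p of 0.0506 and 0.0555, was the closest of the 4 to the threshold.

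**Figure D2:**
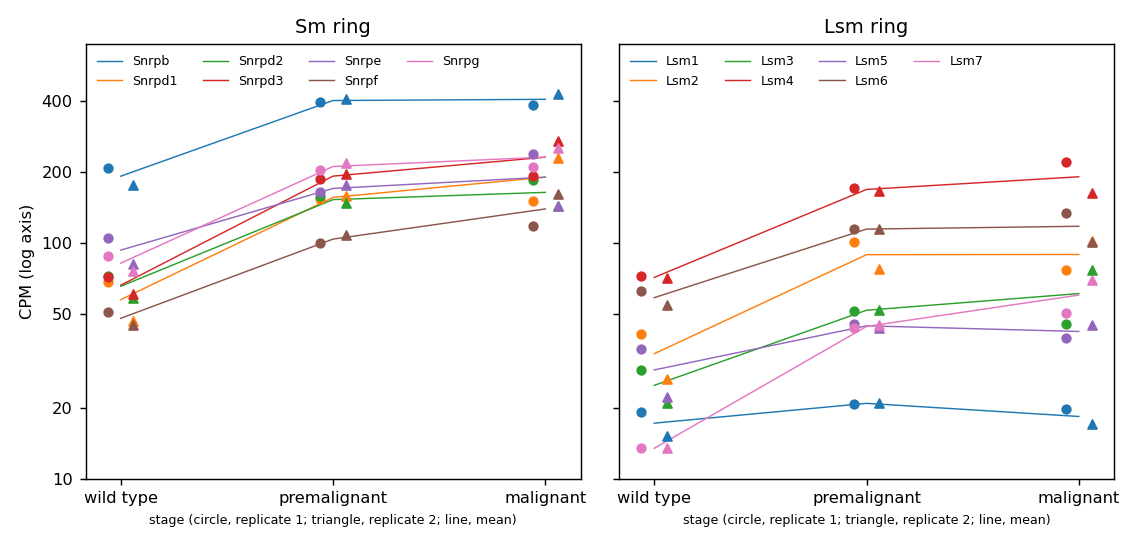
CPM on a log axis of the 7 Sm ring genes (left) and of Lsm1 to Lsm7 (right) in the 6 libraries, with circles for replicate 1, triangles for replicate 2 and lines through stage means. The Eμ-Myc libraries of all 7 Sm ring genes lie above both wild-type libraries, while Lsm1 stays between 15.2 and 21.0 CPM.

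Most Lsm ring genes rose, and Lsm1 was not called. Lsm2 to Lsm7 belong both to the nuclear ring on U6 snRNA and to the cytoplasmic Lsm1 to Lsm7 ring that acts in mRNA decay, Lsm1 belongs to the cytoplasmic ring alone, and Lsm8, the subunit particular to the U6 ring, was not analysed here because no gene carries that symbol in the annotation used. All 6 genes from Lsm2 to Lsm7 were called higher in premalignant cells, and 5 of them in malignant cells, Lsm5 being the exception with 0.54 ± 0.24 (log2, adjusted p = 0.115). Lsm1 (chr8:26896063-26914447) was at 19.2 and 15.2 CPM in wild-type, 20.8 and 21.0 CPM in premalignant and 19.7 and 17.0 CPM in malignant libraries. It was not called, with a log2 fold change of 0.28 ± 0.20 (adjusted p = 0.33) and 0.09 ± 0.20 (adjusted p = 0.741).

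Lsm7 (chr10:80315570-80317954) had the largest log2 fold change of all members. It was at 13.5 and 13.4 CPM in wild-type, 43.7 and 44.9 CPM in premalignant and 50.7 and 69.7 CPM in malignant libraries, and the 3 stages did not overlap. The change was 1.72 ± 0.19 in premalignant (adjusted p = 0.00295) and 2.16 ± 0.19 in malignant vs. wild type (adjusted p = 0.00092), a 3.29-fold and a 4.47-fold difference. Only 2.74% of the 50-base stretches of its exons occur once in NCBIM37, so 50-bp reads of Lsm7 could seldom be placed at a single site, and the same holds for Lsm5 (13.8%). Lsm4 and Lsm2 have unique exon sequence (100% and 97.1%) and do not share this limit. Lsm4, the highest Lsm gene per length, was at 72.2 and 70.8 CPM in wild-type, 172 and 166 CPM in premalignant and 220 and 162 CPM in malignant libraries (1.24 ± 0.17 and 1.42 ± 0.17, log2). Lsm2 was at 41.3 and 26.5, 101 and 77.6, and 77.1 and 102 CPM (1.40 ± 0.27 in both comparisons). Lsm3 and Lsm6 rose by 1.06 ± 0.29 and 0.97 ± 0.17 in premalignant cells and by 1.29 ± 0.29 and 1.01 ± 0.17 in malignant cells. Lsm11, a subunit of the U7 snRNP that acts in histone mRNA processing, was at 17.5 and 13.8, 32.9 and 29.0, and 38.6 and 33.6 CPM (0.98 ± 0.19 and 1.20 ± 0.19), whereas its partner Lsm10 was at 8.01 and 6.94, 9.62 and 9.94, and 7.36 and 9.71 CPM and was not called. Lsm12 was called higher in both comparisons (0.89 ± 0.16 and 0.84 ± 0.16), and Lsm14a, which like Lsm14b is a protein of mRNP granules, was not (0.13 ± 0.14 and 0.00 ± 0.14).

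The SF3 complexes, which anchor the U2 snRNP at the branch point, rose except for one subunit. Of 8 genes, 7 were called higher in premalignant and 6 in malignant vs. wild type. Sf3b3 (chr8:113334139-113370703) was at 297 and 265 CPM in wild-type, 639 and 667 CPM in premalignant and 642 and 683 CPM in malignant libraries. Its 4 Eμ-Myc libraries were close together and all above both wild-type libraries, and the log2 fold changes were 1.22 ± 0.14 (adjusted p = 0.00319) and 1.24 ± 0.14 (adjusted p = 0.00156). Sf3a2 rose from 86.2 and 78.3 CPM to 201 and 159 CPM in premalignant and 202 and 219 CPM in malignant libraries (1.13 ± 0.16 and 1.36 ± 0.16). Sf3b4 was at 50.3 and 41.2, 91.2 and 88.3, and 78.3 and 133 CPM, so that its 2 malignant libraries differed by 0.76 (log2), and its changes were 0.97 ± 0.26 and 1.21 ± 0.26. Sf3b2, the highest of the group per length, was called in premalignant cells (0.60 ± 0.14, adjusted p = 0.0219) but not in malignant cells (0.33 ± 0.14, adjusted p = 0.0939, below the minimum fold change).

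Sf3b1 (chr1:55042013-55084322), the subunit that contacts the branch point and a gene recurrently mutated in blood cancers, was the SF3 gene that was not called in either comparison. It was at 864 and 860 CPM in wild-type, 769 and 766 CPM in premalignant and 1029 and 631 CPM in malignant libraries. The wild-type and the premalignant replicates were nearly equal, while the malignant replicates lay on both sides of them. The log2 fold changes were -0.17 ± 0.24 (adjusted p = 0.627) and -0.05 ± 0.24 (adjusted p = 0.876). The ratio of Sf3b3 to Sf3b1 per length was 0.468 and 0.419 in wild-type, 1.13 and 1.18 in premalignant and 0.849 and 1.47 in malignant libraries, a comparison within each library that does not depend on how libraries are scaled. In wild-type cells Sf3b1 was the highest SF3 gene per length, at a mean of 139 RPKM, and in both Eμ-Myc stages it was Sf3b2, at 178 and 148 RPKM. Sf3b1 was named after its values were seen.

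**Figure D3:**
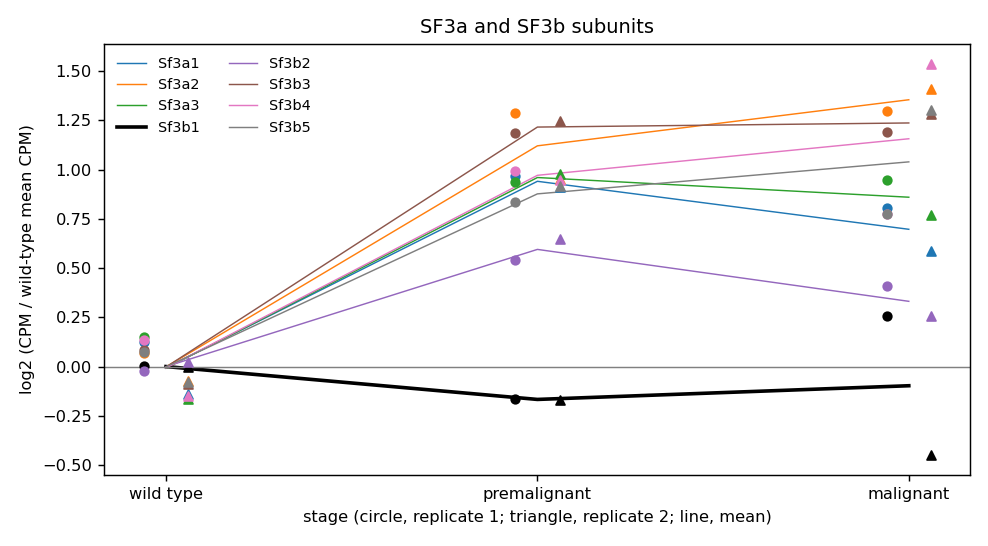
Log2 of CPM over the wild-type mean CPM for the 8 SF3 genes in the 6 libraries, with circles for replicate 1, triangles for replicate 2 and lines through stage means. Sf3b1, in black, lies below 0 in both premalignant libraries, where the other 7 genes lie above 0.5.

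Prpf genes divided between risers and genes without a call. In each comparison the called ones included Prpf19, a ubiquitin ligase of the activated spliceosome, Prpf31, Prpf4 and Prpf3 of the U4/U6 snRNP, and Prpf8, the scaffold of the catalytic core. Prpf19 (chr19:10969733-10980019), the highest of the group per length, was at 192 and 163 CPM in wild-type, 384 and 397 CPM in premalignant and 346 and 396 CPM in malignant libraries (1.14 ± 0.15 and 1.07 ± 0.15, adjusted p = 0.00448 and 0.00312). Prpf31 was at 64.6 and 61.1, 138 and 150, and 118 and 115 CPM (1.20 ± 0.13 and 0.89 ± 0.12). Its replicates were close together at each stage, and the malignant libraries lay between the wild-type and the premalignant ones. Prpf4 was at 48.7 and 43.3, 87.3 and 88.2, and 97.1 and 88.4 CPM (0.93 ± 0.14 and 1.01 ± 0.14), and Prpf8 at 579 and 601, 899 and 1000, and 943 and 901 CPM (0.69 ± 0.14 and 0.64 ± 0.14). The 7 Prpf genes called in neither comparison included Prpf6, Prpf18, Prpf38b, Prpf39, Prpf40b and Prpf4b. The U1-associated Prpf40b was the lowest member tested per length and the one whose malignant libraries differed most, at 2.97 and 8.67 CPM.

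The SR protein genes had lower median changes against wild type than the Snrp, Lsm and Sf3 genes, but not lower than the Prpf genes. Of 10 tested, 4 were called higher in premalignant and 5 in malignant vs. wild type, and 0 were called lower. The unadjusted p was under 0.05 for 6 and 7 genes with a higher level and for 0 with a lower one by edgeR. Srsf6 was at 402 and 366 CPM in wild-type, 632 and 581 CPM in premalignant and 731 and 521 CPM in malignant libraries (0.66 ± 0.19 and 0.70 ± 0.19, adjusted p = 0.0462 and 0.0285). Srsf7, the highest SR gene per length over the 6 libraries, was at 300 and 230, 450 and 439, and 366 and 428 CPM (0.75 ± 0.18 and 0.58 ± 0.18). Srsf1 (chr11:87860875-87867257), the founding SR protein, was at 718 and 444 CPM in wild-type, 1070 and 973 CPM in premalignant and 924 and 946 CPM in malignant libraries. Its 2 wild-type libraries differed by -0.69 (log2, replicate 2 relative to replicate 1), about as much as the stages, and the changes of 0.81 ± 0.24 and 0.69 ± 0.24 had adjusted p-values of 0.0463 and 0.0603. Srsf11 was called only in malignant vs. wild type, at 316 and 327, 451 and 399, and 535 and 505 CPM (0.40 ± 0.14, adjusted p = 0.067, then 0.69 ± 0.14, adjusted p = 0.00911), and its change from premalignant to malignant cells did not pass the test (0.29 ± 0.14, adjusted p = 0.304). Srsf2, Srsf3, Srsf4 and Srsf5 were called in neither comparison. Srsf2 was at 80.7 and 39.1 CPM in wild-type, 138 and 79.8 CPM in premalignant and 99.0 and 93.0 CPM in malignant libraries, and replicate 2 was lower than replicate 1 by more than 0.5 (log2) in the wild-type and premalignant pairs. Srsf3, at 607 and 541, 704 and 715, and 610 and 632 CPM, changed by 0.31 ± 0.14 (adjusted p = 0.138) and 0.11 ± 0.14 (adjusted p = 0.546).

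Many calls were lost when a single library was left out, those on the SR and hnRNP genes among them. Calls over all genes tested also fell in each of the fits named here, so the loss was not limited to these members. In the fits without a library named here, higher calls fell by a larger proportion over all genes than over all members. Without wild-type replicate 2, which had the most neutrophil, monocyte and erythroid marker counts, 28 members were called higher in premalignant vs. wild type, of which 6 were Sm ring genes, 0 were Srsf genes and 4 were Hnrnp genes. Without premalignant replicate 1 or 2 the total was 24 or 23, again with 6 Sm ring genes and 0 Srsf genes, and with 3 or 2 Hnrnp genes. The Lsm, Sf3 and Prpf genes then gave 5, 4 and 3 calls in either case. For malignant vs. wild type the total without wild-type replicate 2 was 32, with 6 Sm ring, 2 Srsf and 4 Hnrnp genes. The medians moved less. Over all members tested, the median in premalignant vs. wild type was 0.73 with all libraries and 0.60 without wild-type replicate 2. Without premalignant replicate 1 or 2 it was 0.74 or 0.72. The Srsf median in premalignant vs. wild type was 0.43 without wild-type replicate 2. With library totals alone, 0 Srsf genes and 7 Sm ring genes were called higher in malignant vs. wild type, and the Hnrnp genes gave 3 higher and 3 lower. That scaling called 2957 of all 16683 genes higher and 5367 lower. In the fits without a library, the lone library of a stage is taken to vary like the other stages.

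The hnRNP genes included both strong risers and the only member called lower against wild type. Of 18 genes, 11 were called higher in premalignant cells, and 9 higher and 1 lower in malignant vs. wild type. Hnrnpa2b1 (chr6:51410433-51419893) was the highest member per length at each stage, at 435 and 367 RPKM in wild-type, 644 and 676 RPKM in premalignant and 532 and 678 RPKM in malignant libraries. Its log2 fold changes were 0.72 ± 0.19 (adjusted p = 0.034) and 0.59 ± 0.19 (adjusted p = 0.0465). Hnrnpab was at 465 and 353 CPM in wild-type, 914 and 923 CPM in premalignant and 908 and 880 CPM in malignant libraries (1.17 ± 0.17 and 1.13 ± 0.17, adjusted p = 0.00618 and 0.00411). Of its exon bases, 26.9% overlap Agxt2l2. Hnrnpa1, a repressor of many splice sites, was at 276 and 270, 582 and 622, and 577 and 551 CPM (1.14 ± 0.13 and 1.05 ± 0.13), though only 15.7% of its 50-base stretches occur once in the genome. Hnrnpf was at 401 and 317, 589 and 624, and 520 and 774 CPM (0.76 ± 0.23 and 0.85 ± 0.23), with 28.4% of such stretches unique. Hnrnpu, Hnrnpc, Hnrnpd, Hnrnpl and Hnrnpa3 were also called higher in both comparisons, by 0.59 to 0.94 in premalignant and 0.56 to 0.76 in malignant cells (log2). Only 17.5% of the 50-base stretches of Hnrnpa3 occur once in the genome. The share was 51.3% for Sf3b4 and 56.0% for Snrpd2 of the groups above.

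The relatives of Hnrnpf, which bind G-rich RNA, did not rise with it. Hnrnph1 was at 953 and 1023 CPM in wild-type, 1100 and 1040 CPM in premalignant and 947 and 613 CPM in malignant libraries, and was not called (0.12 ± 0.22 and -0.34 ± 0.22). The ratio of Hnrnpf to Hnrnph1 per length was 0.873 and 0.643 in wild-type, 1.11 and 1.25 in premalignant and 1.14 and 2.62 in malignant libraries. Hnrnph2 was not called either (0.18 ± 0.14 and -0.14 ± 0.14). Hnrnph3 (chr10:62477412-62486965) was at 20.1 and 21.2 CPM in wild-type, 21.3 and 18.5 CPM in premalignant and 11.2 and 12.6 CPM in malignant libraries. Both malignant libraries were below the other 4, and the change vs. wild type was -0.80 ± 0.19 (log2, adjusted p = 0.018), with -0.74 ± 0.19 vs. premalignant cells (adjusted p = 0.109). Of its exon bases, 75.5% overlap Rufy2, so this count covers part of the gene or depends on the counting of overlaps. Hnrnph1 and Hnrnph2 were named after their values were seen.

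Within each library of the Eμ-Myc stages the core snRNP genes stood higher relative to the SR and hnRNP genes than in wild-type libraries. The mean log2 RPKM of the 7 Sm ring genes minus that of the 10 Srsf genes was 0.57 and 0.55 in wild-type, 1.17 and 1.37 in premalignant and 1.38 and 1.59 in malignant libraries. Against the 18 Hnrnp genes the same difference was -0.24 and -0.36, then 0.35 and 0.35, then 0.66 and 0.81, so Sm ring transcripts were below hnRNP transcripts per length in wild-type cells and above them in Eμ-Myc cells. The Lsm ring minus the Hnrnp genes gave -2.03 and -2.19, -1.59 and -1.70, and -1.43 and -1.30. The Srsf minus the Hnrnp genes stayed within a narrow range in all libraries, at -0.81 and -0.92, -0.83 and -1.02, and -0.72 and -0.78. For the first 3 differences the stages did not overlap. The Lsm ring minus the Srsf genes gave -1.22 and -1.27, -0.77 and -0.68, and -0.71 and -0.52. In that difference the premalignant and malignant libraries overlapped, and both stages lay above wild type. These differences are free of library scaling, and because the members were chosen with earlier results of these data known, no test was made on them. With 2 libraries against 2, an exact permutation test could not go below p = 0.333 in any case.

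**Figure D4:**
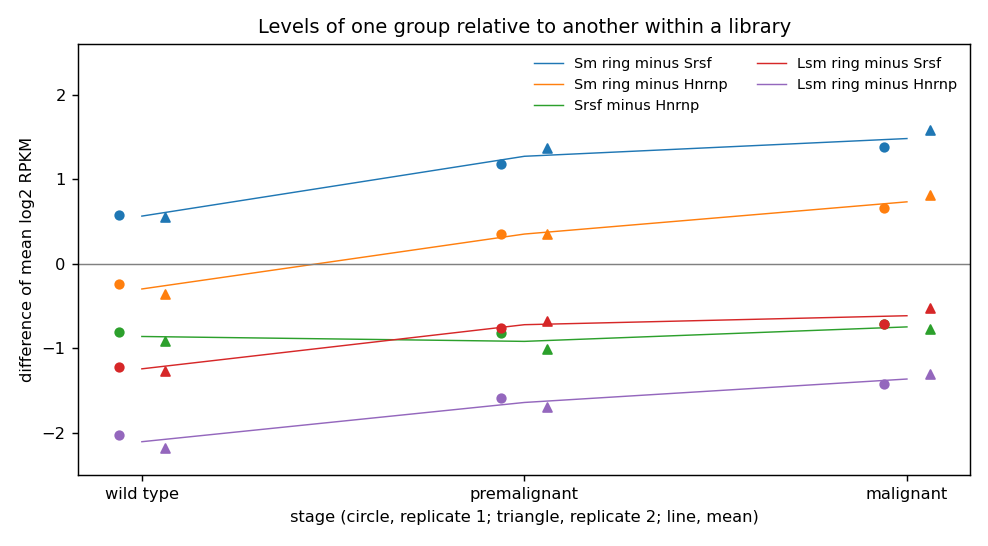
Difference of mean log2 RPKM between groups of members within each library, with circles for replicate 1, triangles for replicate 2 and lines through stage means. The Sm ring minus the Hnrnp genes moves from a mean of -0.30 in wild-type to 0.73 in malignant cells, while the Srsf minus the Hnrnp genes stays between -1.02 and -0.72.

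Replicates of a stage were mostly close to each other for these genes. Members whose 2 libraries differed by at least 0.5 (log2) numbered 6 of 72 in the wild-type, 1 in the premalignant and 11 in the malignant stage, compared with 24.6%, 20.2% and 40.9% of all genes tested. Expression level differs between the members and genes at large, and its part in this was not tested. In wild-type cells 63 of 72 members were lower in replicate 2 than in replicate 1, with a median difference of -0.20, and the medians were 0.03 and -0.03 in premalignant and malignant cells. The median change in premalignant vs. wild type was therefore 0.58 within replicate 1 and 0.93 within replicate 2. Both libraries of premalignant cells lay above both wild-type libraries for 63 members and below them for 2, compared with 36.2% and 41.2% of all genes tested. For malignant cells the numbers were 57 and 5, compared with 35.3% and 36.4%.

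Other genes of the pathway were taken as lists by function. Genes for snRNP assembly rose, with 14 of 18 called higher in premalignant and 16 in malignant vs. wild type and 0 lower in either by edgeR, also at an unadjusted p under 0.05 or by DESeq2, and a median log2 fold change of 0.98 and 1.13. Prmt5, the arginine methyltransferase that modifies Sm proteins before assembly, was at 77.7 and 63.0 CPM in wild-type, 219 and 227 CPM in premalignant and 321 and 313 CPM in malignant libraries (1.66 ± 0.15 and 2.17 ± 0.15, adjusted p = 0.00203 and 0.000628). Its partners Wdr77 and Clns1a rose by 1.29 ± 0.22 and 1.26 ± 0.13 in premalignant cells and by 1.49 ± 0.22 and 1.36 ± 0.13 in malignant cells. Smn1, the core of the SMN complex that loads the ring onto snRNA, rose by 1.13 ± 0.15 and 1.25 ± 0.15, and Gemin5, its snRNA-binding subunit, was at 42.0 and 36.9, 152 and 155, and 142 and 193 CPM (1.96 ± 0.18 and 2.09 ± 0.18). The 2 genes of the list called in neither comparison were Gemin7 and Riok1. In premalignant vs. wild type the 14 calls became 8 without premalignant replicate 2 and 9 without premalignant replicate 1 or wild-type replicate 2.

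Other spliceosome subunits gave fewer calls, with 17 of 37 called higher in premalignant and 16 in malignant vs. wild type, 0 lower by edgeR, also at an unadjusted p under 0.05 or by DESeq2, and medians of 0.50 and 0.42. The 17 became 5 without premalignant replicate 2, 8 without premalignant replicate 1 and 10 without wild-type replicate 2, and with library totals the 17 became 9 and the 16 became 7 higher and 1 lower. Among them the U5 GTPase Eftud2 rose by 1.37 ± 0.13 and 1.21 ± 0.13, the 3′ splice site binder U2af1 by 1.16 ± 0.14 and 1.24 ± 0.14, and the SF3b subunit Phf5a by 1.10 ± 0.17 and 1.25 ± 0.17. Of the 5 exon junction complex genes 4 were called higher in both comparisons, the exception being Casc3. The kinases of SR proteins went in both directions. Srpk1, which phosphorylates SR proteins in the cytoplasm, was at 80.1 and 74.8 CPM in wild-type, 211 and 210 CPM in premalignant and 204 and 196 CPM in malignant libraries (1.44 ± 0.12 and 1.37 ± 0.12). The nuclear kinase Clk3 fell by 0.51 and by 0.69, from 82.0 and 90.7 CPM to 61.4 and 59.7 CPM and to 55.8 and 51.3 CPM (adjusted p = 0.0323 and 0.00885), and Clk4 fell by 0.98 in malignant vs. wild type (adjusted p = 0.0162). Of the 13 genes in that list, 4 were called higher and 1 lower in premalignant cells, and 4 higher and 2 lower in malignant cells. Over all genes tested the shares were 19% and 20.3%, then 24.9% and 24.3%, so these counts are small and near the background. The median of that list, 0.13 and 0.22, turned to -0.08 and -0.07 with library totals, and its premalignant calls fell to 1 higher and 0 lower without either premalignant library or wild-type replicate 2.

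**Figure D5:**
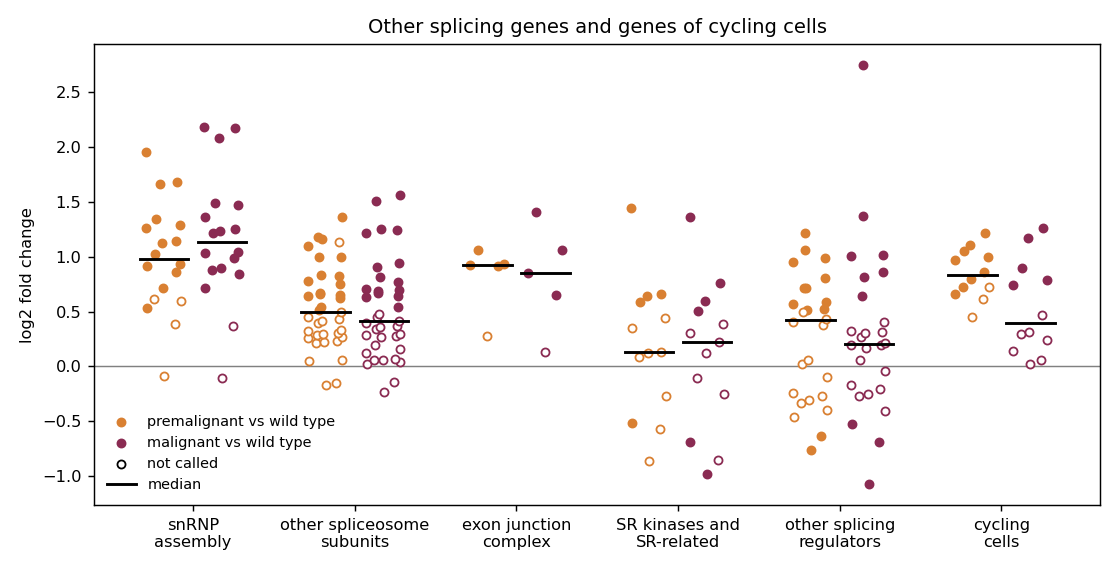
Log2 fold change of the genes of 6 further lists in premalignant and malignant vs. wild type; filled points were called, open points were not, and bars are medians. The median of the snRNP assembly genes is 0.98 and 1.13, while that of the SR kinases and SR-related genes is 0.13 and 0.22.

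Of 26 other splicing regulators tested, 11 were called higher and 2 lower in premalignant, and 7 higher and 3 lower in malignant vs. wild type. The malignant count is near the 24.9% of all genes called higher, and with library totals it was 6 higher and 6 lower, with the median going from 0.21 to -0.09. The 11 became 3 without either premalignant library and 4 without wild-type replicate 2. Ptbp1, a repressor of exons, rose by 0.99 ± 0.15 and 1.02 ± 0.15, and Syncrip, an hnRNP by sequence that carries another symbol, by 1.06 ± 0.17 and 1.01 ± 0.17. Rbm5 fell from 250 and 292 CPM in wild-type to 178 and 171 CPM in premalignant and 135 and 122 CPM in malignant libraries, a decrease of 0.64 and 1.08 on the log2 scale (adjusted p = 0.0197 and 0.00248). In malignant vs. premalignant cells 0 genes of any of these lists were called by edgeR. At an unadjusted p under 0.05, 2 were higher and 5 lower among the splicing lists together, and DESeq2 called 1 higher and 3 lower. The 12 genes of cycling cells, listed to show proliferation beside these results, were called higher in 9 cases in premalignant and in 5 in malignant vs. wild type, with a median log2 fold change of 0.83 and 0.39. The 9 became 3, 2 and 4 without premalignant replicate 1, premalignant replicate 2 and wild-type replicate 2. The genes Mki67, Top2a and Pcna were at 1895 and 1364, 1481 and 852, and 489 and 360 CPM in the 2 wild-type libraries. The part of proliferation in the changes of splicing factor genes was not tested.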

How the data were processed

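RNA-seq of sorted bone marrow B cells was analysed for 6 libraries, 2 per stage. The authors aligned reads with TopHat and counted them per gene with HTSeq, and the deposited values used here are these raw counts. The submitters' processing notes also name CASAVA 1.8.2, Bowtie and DESeq. The options and strand setting of the counting are not given in the sources used here. Deposited tables of the authors' own comparisons (means, fold changes and p-values) were not used.

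Counts were tested with edgeR 4.0.16 in R 4.3.3 (filterByExpr, TMM, quasi-likelihood F-test over all 16683 genes tested, all 6 libraries in 1 fit, no covariate), with a call at an FDR not above 0.1 and a log2 fold change of 0.5 or more in size. Values after ± are standard errors. CPM are per 1000000 of the TMM-scaled library size, and RPKM are CPM per kilobase of exon in GENCODE vM1 on NCBIM37. The procedure was tested on simulated data. Alternatives were DESeq2 1.42.0, other scalings, filters and thresholds, a replicate block, a fit on 2 stages alone, and leaving out each library. Precision is limited by 2 libraries per stage.

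The members and gene lists were chosen with earlier results of these data known. Named genes were, per group, the 3 called members with the largest change in malignant vs. wild type, the member with the highest mean RPKM, members called against the group's direction, up to 10 members called in malignant vs. premalignant cells, members not passing the filter, Myc, and the Sm and Lsm rings as wholes. Other genes were named after their values were seen. No protein sequences were used here. Some items are not reported here.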

Additional observations from a re-analysis of the deposited data

How the results depend on the processing

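The 47 members called higher in premalignant vs. wild type became 18 with a minimum log2 fold change of 1 and ranged from 23 to 52 when 1 library was left out, the lowest being 23 without premalignant replicate 2, 24 without premalignant replicate 1 and 28 without wild-type replicate 2. The 0 called lower became 1 without a filter on low counts and 1 in the fit on the 2 stages alone, with 0 to 2 when 1 library was left out. The 43 called higher in malignant vs. wild type became 27 with library totals alone and 23 with a minimum log2 fold change of 1, with 32 to 48 when 1 library was left out. The 1 called lower became 4 with upper-quartile scaling, 5 with library totals alone, 2 with at least 10 counts in every library, 4 with no minimum fold change and 0 with a minimum log2 fold change of 1, with 1 to 2 when 1 library was left out. In malignant vs. premalignant cells, the 0 called higher became 0 to 3 when 1 library was left out, 3 without malignant replicate 1. The 1 called lower became 2 with DESeq2, upper-quartile scaling, library totals alone or at least 10 counts in every library, 0 with the 2 stages alone, an FDR of 0.05 or a minimum log2 fold change of 1, and 0 to 4 when 1 library was left out. In malignant vs. premalignant cells, the fits without a malignant library called a larger share of all genes than of the members, in both directions. The cause of the shifts in these counts was not tested, except that stricter thresholds call fewer genes by construction. Upper-quartile scaling moved the median of all genes to -0.17 and -0.19 in the comparisons with wild type, and library totals alone to -0.29 and -0.31. No call on a named member reversed its direction. In malignant vs. premalignant cells the Sm ring median went from 0.16 to -0.04 without malignant replicate 2, and the Srsf median from -0.15 to 0.02 without premalignant replicate 1. The 5 Lsm genes outside the ring had a median of 0.19 in malignant vs. wild type and -0.10 with library totals. The replicate block gave 50, 45 and 0 members called higher, with 6 and 7 Srsf genes called against wild type in place of 4 and 5. The deviations from the stage mean of libraries sharing a number were correlated at 0.509, 0.186 and 0.257 over 16683 genes, but with 2 pairs per comparison the numbers were not taken to pair the samples.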
